A study of Homo sapiens with 12 samples.

Results

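The genes described here are 41 genes of the lysosome and of its proton pump, the vacuolar ATPase (V-ATPase). They were taken by symbol from a table of read counts that holds 54628 gene symbols. By role they are lysosomal membrane proteins, proteases, glycosidases, a group of lipid handling proteins and cofactors, V-ATPase subunits, and the transcription factors TFEB, TFE3 and MITF. All 41 symbols were found, and 40 of them passed the filter on low counts and entered the tests, among 15173 genes tested in all. The exception was NEU1, a sialidase.

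Polyadenylated RNA was sequenced from OCI-AML3, an established human acute myeloid leukaemia cell line, after 24 h of treatment, in 4 groups of 3 libraries. Comb cells received venetoclax and an ERK inhibitor, ERKi cells received the ERK inhibitor alone (compound 27 in the labels), and ABT199 cells received venetoclax alone. DMSO cells received the solvent. Venetoclax blocks the survival protein BCL2, and ERK is the last kinase of the RAS-RAF-MEK-ERK cascade. The study asks how ERK inhibition alters the response to venetoclax. Each result concerns this single line, and nothing in the labels says that replicates came from separate cultures, so p-values measure the spread between samples, which may be technical.

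Lysosomes are acidic organelles that break down proteins, sugars, lipids and worn-out organelles. Acid is supplied by the V-ATPase, in which the cytosolic V1 sector splits ATP and the membrane V0 sector carries protons inward. Many lysosomal genes share a short promoter element, the CLEAR element, which TFEB, TFE3 and MITF bind. ERK and mTORC1 can phosphorylate TFEB and keep it in the cytoplasm, and monocytes and macrophages are rich in lysosomes.

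The promoters below are shown because they hold that element, searched as TCACGTG on both strands, in members with a change under ERKi. The 7 letters contain the general E-box CACGTG, and TCACGTGA counts as a match on both strands. RefSeq promoter windows of GRCh38.p14, from 250 bases before to 50 bases after a gene's start, were found for 29 of the 41 members, as 39 windows. The element was in 11 of the 39 windows (28.2%), against 3.71% of all 35116 windows, and the general E-box was in 28.2% and 7.26% of windows. These windows belong to 10 members, namely ATP6V0B, ATP6V0D1, ATP6V1G1, CLN3, CTSA, CTSD, GAA, LAMP1, MCOLN1 and NEU1. The 4 printed are those with the largest absolute change, at chr17:80101331-80101630 (GAA, plus strand), chr16:28492033-28492332 (CLN3, minus strand), chr11:1763878-1764177 (CTSD, minus strand) and chr20:45891085-45891384 (CTSA, plus strand). Capitals mark the element, read 5′ to 3′ on the gene's strand.
GAA: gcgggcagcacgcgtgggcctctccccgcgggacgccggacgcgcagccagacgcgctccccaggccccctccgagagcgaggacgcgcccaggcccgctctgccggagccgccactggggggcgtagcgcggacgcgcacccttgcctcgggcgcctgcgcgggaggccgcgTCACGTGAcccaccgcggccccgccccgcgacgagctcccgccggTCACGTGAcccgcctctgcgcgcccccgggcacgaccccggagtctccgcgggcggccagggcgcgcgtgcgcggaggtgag
CLN3: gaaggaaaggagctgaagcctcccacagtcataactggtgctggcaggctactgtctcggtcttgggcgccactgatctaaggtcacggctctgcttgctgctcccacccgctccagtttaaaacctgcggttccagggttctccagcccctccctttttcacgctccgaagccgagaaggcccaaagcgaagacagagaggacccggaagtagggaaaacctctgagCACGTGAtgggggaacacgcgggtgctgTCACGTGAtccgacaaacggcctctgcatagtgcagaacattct
CTSD: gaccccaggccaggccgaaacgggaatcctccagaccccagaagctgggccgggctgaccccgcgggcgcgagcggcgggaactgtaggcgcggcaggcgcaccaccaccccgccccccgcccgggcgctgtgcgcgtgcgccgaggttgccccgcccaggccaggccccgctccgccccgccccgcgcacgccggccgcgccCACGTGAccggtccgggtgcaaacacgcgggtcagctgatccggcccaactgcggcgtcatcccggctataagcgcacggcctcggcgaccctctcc
CTSA: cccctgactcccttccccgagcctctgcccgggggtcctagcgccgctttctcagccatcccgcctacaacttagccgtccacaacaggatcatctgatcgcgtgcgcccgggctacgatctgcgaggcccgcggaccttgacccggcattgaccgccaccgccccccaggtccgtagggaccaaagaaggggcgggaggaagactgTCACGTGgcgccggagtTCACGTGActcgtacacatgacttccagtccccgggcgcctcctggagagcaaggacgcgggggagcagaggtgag

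In the GAA window the first match began 77 bases before the start, and a further copy followed it. CLN3 and CTSA windows also held 2 copies each, beginning 22 and 43 bases before the start, and the CTSD window held 1 copy, 47 bases before it. Of the 10 members with the element, 5 rose with ERKi against DMSO (CLN3, CTSA, CTSD, GAA and LAMP1), ATP6V0B fell and NEU1 was not tested. Of the 19 members with a window but no match, 10 rose, and ATP6V1E1, GLA, GUSB and TPP1 fell. Over all genes tested, 34.5% rose and 35.2% fell. A match describes the letters of a window and is no measure of binding.

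The libraries held 19199296 to 21275065 counts each. DMSO replicate 1 stood apart from its group, at a chi-square of 16.3 and 15.4 per degree of freedom from the other DMSO libraries, where every other pair within a group lay between 2.26 and 5.11. It was above both other DMSO libraries for 29 members and below both for 9, so counts against DMSO are given with and without it, as are the values of the members in which it stood farthest apart. Myeloid identity markers, 8 of 10 tested, summed to 6410–6666 CPM, the count scaled to a common library size of 1e+06, in Comb, 4928–5094 in ERKi, 1813–1875 in ABT199 and 1918–2042 in DMSO libraries, with CD34 and KIT near 0. Most of the rise in that sum came from LYZ, which encodes lysozyme. LYZ had a mean of 3990 CPM in Comb, 2434 in ERKi, 176 in ABT199 and 209 CPM in DMSO cells. In DMSO cells ITGB2 (576 CPM), PTPRC (507) and CEBPA (403) were each higher than LYZ. With ERKi against DMSO, 6 of the myeloid identity markers rose, while ITGB2 (-0.70) and MPO (-0.78) fell. Mature monocyte and macrophage markers, 6 of 13 tested with C1QB at 0, summed to 90.2–97.6 CPM in Comb, 195–211 in ERKi, 19.9–21.7 in ABT199 and 24.3–27.8 in DMSO. They were carried by CSF1R, CD86 and MERTK, and CD14 stayed under 1 CPM on average in each group and fell with ERKi against DMSO (-1.18). Both summed levels were higher with the ERK inhibitor, as was the sum of the 41 genes, and their part in the results below was not tested. In Comb libraries the monocyte and macrophage sum was lower than in ERKi libraries, and the myeloid identity sum was higher. The sum of the 41 genes was 6001 to 6247 CPM in Comb and 6019 to 6209 CPM in ERKi libraries. Within it, GRN averaged 999.6 CPM in Comb and 735.7 CPM in ERKi libraries. In Comb against ERKi, 12 of the 40 tested members rose and 16 fell, where 26.5% and 24.3% of all genes did. Stromal markers summed to 2.6–2.9 CPM in Comb, 11.3–26.0 in ERKi, 14.4–25.4 in ABT199 and 7.0–35.9 in DMSO. T or NK cell and B cell markers summed to at most 2.7 CPM in any library, with CD3D, CD3G and MS4A1 at 0. Endothelial markers summed to at most 0.2 CPM in any library, with CDH5 at 0.

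ERK inhibition alone raised most of the genes of lysosomal content and all 3 TFEB family factors, while most V-ATPase subunits did not pass the test. The 41 genes together summed to 6033, 6209 and 6019 CPM in ERKi libraries, against 4569, 4309 and 4272 CPM in DMSO libraries. Of the 40 tested members, 22 rose (55%), 7 fell (17.5%) and 11 did not pass the test, where 34.5% of all genes tested rose and 35.2% fell. The median log2 fold change was 0.39 over the members and 0.01 over all genes, and the members ranged from -0.46 to 1.41. At least 2-fold rises were seen in 6 members, and no member fell by as much, against 13.7% and 10.6% of all genes. In bulk RNA, fewer cells of a type and less RNA per cell cannot be told apart. Calls rest on edgeR's quasi-likelihood test at an adjusted p under 0.05. Without DMSO replicate 1, 25 members rose and 8 fell. In the 6 called members in which that library stood farthest above the other DMSO libraries, the log2 fold change was then larger, at 1.40 for TFEB (1.19 with it), 0.95 for CLN3 (0.76), 0.67 for NPC2 (0.51), 0.76 for CTSZ (0.63), 0.56 for CTSA (0.44) and 1.53 for GRN (1.41).

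**Figure D1:**
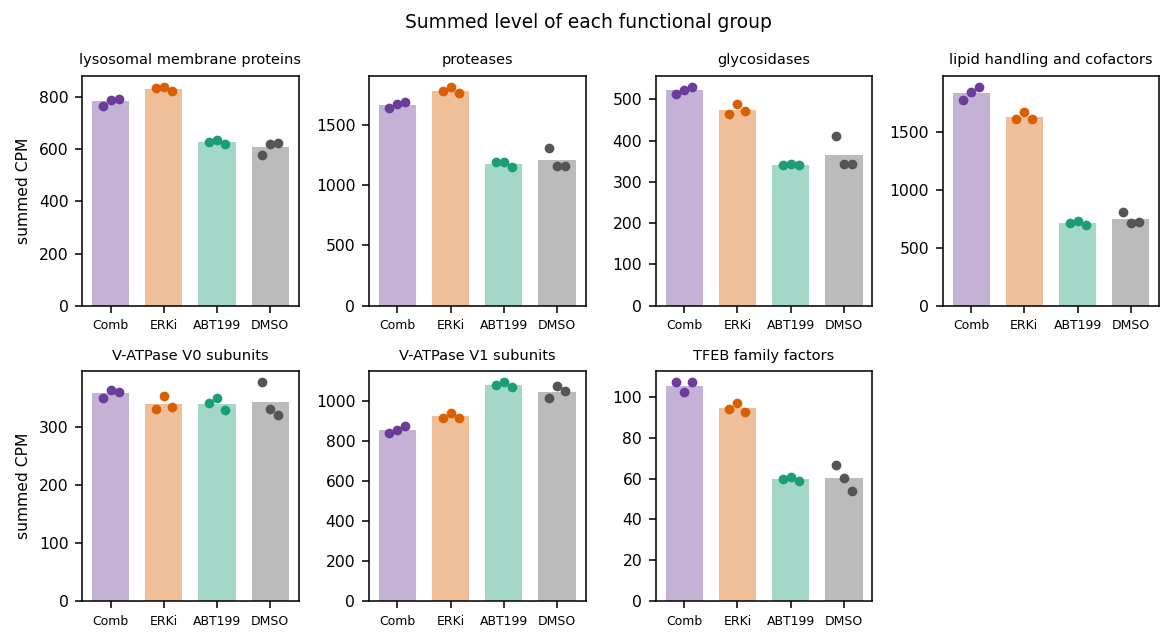
Summed CPM of the members of each functional group, with bars at the group mean and a point for each library, for Comb, ERKi, ABT199 and DMSO from left to right. The group of lipid handling proteins and cofactors reaches 1611–1672 CPM in ERKi libraries, against 714–812 CPM in DMSO libraries. Of this, GRN averages 736 CPM and PSAP 584 CPM in ERKi libraries, against 278 and 241 CPM in DMSO libraries. V1 subunits lie at 919–943 CPM in ERKi and 1014–1076 CPM in DMSO libraries. ATP6V1B2 weighs most in this sum, averaging 439.5 CPM in ERKi and 588.5 CPM in DMSO libraries. ATP6V1A averages 113.6 CPM in ERKi and 66.3 CPM in DMSO libraries. By the test, 1 of the 8 V1 subunits rose and 2 fell.

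By role, the 24 tested hydrolases, cofactors and membrane proteins included 17 that rose (70.8%) and 4 that fell (16.7%), with a median log2 fold change of 0.52. The 13 V-ATPase subunits included 2 that rose (15.4%) and 3 that fell (23.1%), with a median of -0.07. Over all genes tested, 34.5% rose and 35.2% fell, shares that also stand beside the counts of each role below. The difference between these 2 sets of members was not tested.

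**Figure D2:**
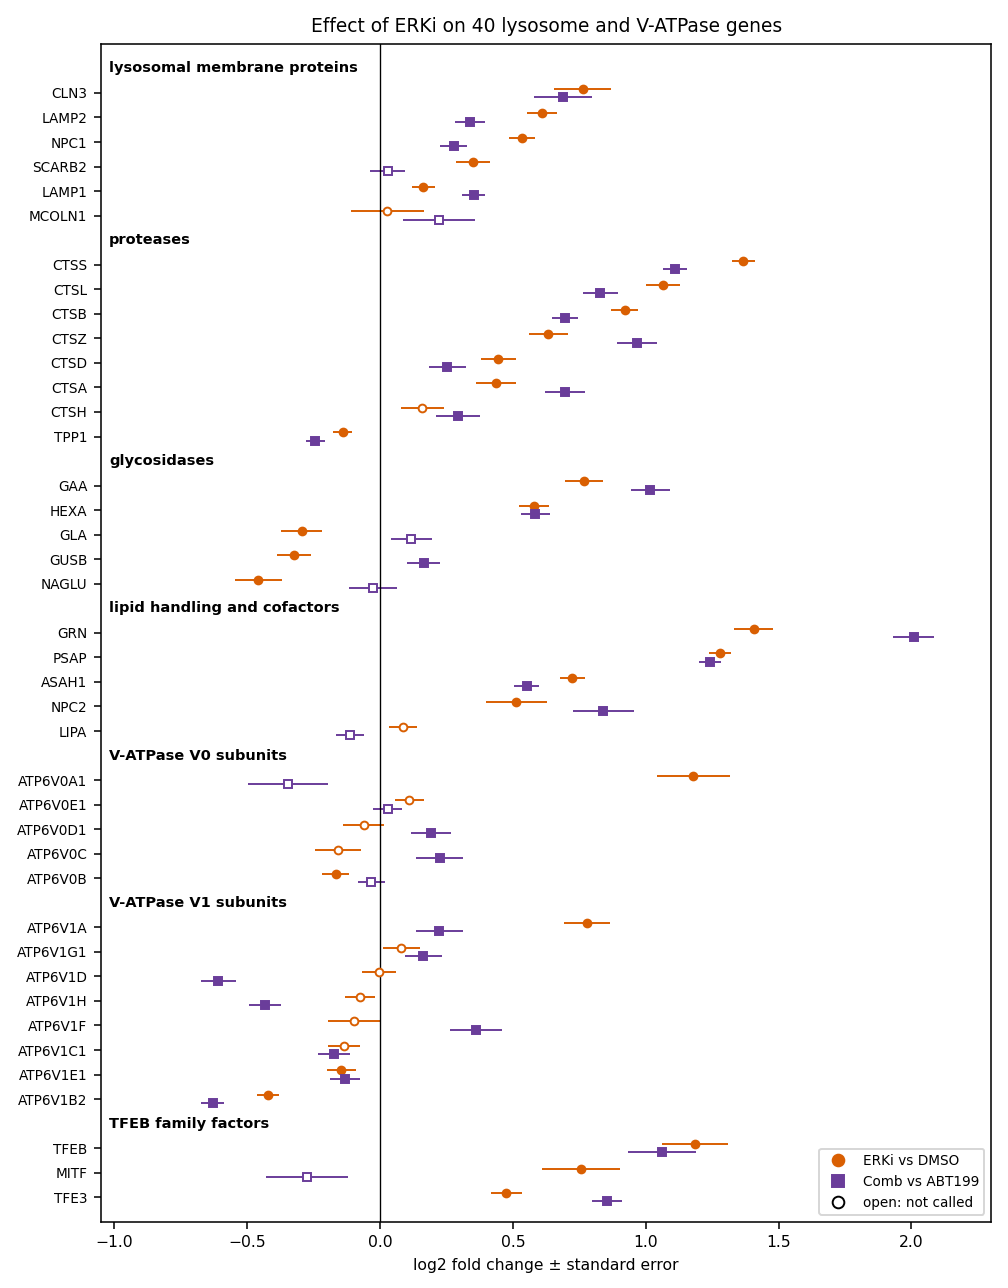
Log2 fold change with its standard error for each of the 40 tested members, grouped by role, for ERKi against DMSO (orange circles) and Comb against ABT199 (purple squares), with open symbols for values that did not pass the test. GRN lies at 1.41 and 2.01, whereas ATP6V0A1 lies at 1.18 in ERKi against DMSO and at -0.34, not called, in Comb against ABT199.

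Of the 6 membrane proteins, 5 rose with ERKi, with a median log2 fold change of 0.44. CLN3, a membrane protein lost in juvenile Batten disease, was at 35.1, 34.2 and 36.4 CPM in ERKi libraries, against 25.9, 19.3 and 17.1 CPM in DMSO libraries. All ERKi values lay above all DMSO values, and the log2 fold change was 0.76 (SE 0.107, adjusted p = 7.02e-06). CLN3 shares 25.2% of its exon bases with AC138894.1 on the same strand and 5.8% with APOBR on the opposite strand, and the strand setting of the counting is not given, so its reads are not certain. LAMP2, a heavily glycosylated protein of the lysosomal membrane, was at 450, 453 and 440 CPM in ERKi libraries, against 259, 310 and 310 CPM in DMSO libraries. The groups did not overlap (log2 fold change 0.61, SE 0.057, adjusted p = 5.49e-08). NPC1, which exports cholesterol from the lysosome, rose by 0.54, SCARB2, the receptor that carries glucocerebrosidase to lysosomes, by 0.35, and LAMP1 by 0.16. MCOLN1, the calcium channel TRPML1, had a log2 fold change of 0.03 and was not called. NPC1 shares 6.0% of its exon bases with RMC1 on the opposite strand.

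Among the 8 proteases, 6 rose, 1 fell and CTSH was not called. CTSS, the cathepsin S that trims the invariant chain in antigen presentation, was at 365, 374 and 363 CPM in ERKi libraries, against 135, 145 and 147 CPM in DMSO libraries. This was a 2.58-fold rise, with no overlap and an adjusted p of 9.95e-14. CTSL, a cysteine protease of broad specificity, was at 40.8, 40.8 and 39.2 CPM in ERKi libraries, against 20.2, 18.6 and 18.9 CPM in DMSO libraries. The rise was 2.09-fold (adjusted p = 2.29e-10), with the ERKi libraries close together and clear of DMSO. CTSB, another cysteine cathepsin, rose by 0.92 on the log2 scale, the carboxypeptidase CTSZ by 0.63, the aspartic protease CTSD by 0.45 and CTSA, which also protects galactosidase and sialidase, by 0.44. CTSD shares 41.7% of its exon bases with AC068580.4 on the same strand, so its reads are not certain either. CTSA shares 17.7% of its exon bases with NEURL2, at 0 counts here, and 3.4% with PLTP, both on the opposite strand. The member that fell was TPP1, a tripeptidyl peptidase, at 366, 366 and 367 CPM in ERKi libraries, against 419, 396 and 397 CPM in DMSO libraries. That fall was small, -0.14 on the log2 scale (adjusted p = 0.0029), although the groups did not overlap. TPP1 shares 11.6% of its exon bases with AC091564.7 on the same strand.

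Glycosidases moved in both directions, with 2 of the 5 tested rising and 3 falling. GAA, the glucosidase that digests lysosomal glycogen, was at 234, 242 and 239 CPM in ERKi libraries, against 164, 127 and 128 CPM in DMSO libraries. Its 1.70-fold rise had an adjusted p of 6.4e-08, and all ERKi values were above DMSO replicate 1, the highest DMSO value. HEXA, the alpha subunit of hexosaminidase, was at 122, 126 and 120 CPM in ERKi libraries, against 89.9, 78.6 and 77.3 CPM in DMSO libraries. It rose by 0.58 on the log2 scale (adjusted p = 7.79e-08), again without overlap. HEXA shares 10.1% of its exon bases with AC009690.2 on the opposite strand and 4.9% with AC009690.1 on the same strand.

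NAGLU, which removes N-acetylglucosamine from heparan sulphate, was at 16.5, 17.5 and 14.4 CPM in ERKi libraries, against 25.0, 21.1 and 20.3 CPM in DMSO libraries. All ERKi values lay below all DMSO values (log2 fold change -0.46, adjusted p = 0.000219). NAGLU shares 12.6% of its exon bases with AC067852.1 on the same strand. GUSB, the beta-glucuronidase, was at 63.9, 73.6 and 67.8 CPM in ERKi libraries, against 92.9, 82.5 and 81.2 CPM in DMSO libraries. It fell by 0.32 on the log2 scale (adjusted p = 0.000265) without overlap. GUSB has pseudogenes with counts of their own, the largest being GUSBP1 at 13.97% and GUSBP11 at 10.67% of its mean count, so its value is uncertain. GLA, the alpha-galactosidase lost in Fabry disease, fell by 0.29. NEU1, which removes sialic acids, held 11, 3 and 2 counts in ERKi libraries, against 6, 1 and 7 counts in DMSO libraries, and was not tested.

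Of the 5 members grouped as lipid handling proteins and cofactors, 4 rose, among them GRN, with the largest rise of the 40 members. GRN, at chr17:44345086-44353102 (GRCh38, plus strand), encodes progranulin, a secreted and lysosomal glycoprotein. It was at 726, 752 and 728 CPM in ERKi libraries, against 327, 250 and 256 CPM in DMSO libraries. The groups were far apart (log2 fold change 1.41, SE 0.074, adjusted p = 3.59e-11). PSAP, at chr10:71816298-71851375 (minus strand), encodes prosaposin, the precursor of the saposins that present sphingolipids to hydrolases. It was at 578, 597 and 578 CPM in ERKi libraries, against 254, 234 and 234 CPM in DMSO libraries, a 2.43-fold rise with an adjusted p of 1.12e-13. Replicates of PSAP differed little beside that gap. The acid ceramidase ASAH1 rose by 0.72 on the log2 scale and the cholesterol carrier NPC2, which shares 3.7% of its exon bases with ISCA2 on the opposite strand, by 0.51. LIPA, the acid lipase, had a log2 fold change of 0.09 and was not called.

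The V0 sector gave 1 rise and 1 fall among 5 subunits. ATP6V0A1, at chr17:42458844-42522611 (plus strand), encodes one of the alternative a subunits that anchor the proton path. It was at 14.02, 13.44 and 14.95 CPM in ERKi libraries, against 6.57, 5.65 and 6.50 CPM in DMSO libraries. All ERKi values were above all DMSO values (log2 fold change 1.18, SE 0.138, adjusted p = 9.01e-07). ATP6V0B, a proteolipid of the membrane ring, was at 83.8, 88.3 and 86.1 CPM in ERKi libraries, against 101, 94.3 and 95.1 CPM in DMSO libraries. This fall was 0.891-fold and passed the test (adjusted p = 0.00813). ATP6V0B shares 8.5% of its exon bases with AL357079.2 on the opposite strand. ATP6V0C, the other proteolipid, ATP6V0D1 and ATP6V0E1 had log2 fold changes between -0.16 and 0.11 and were not called. ATP6V0C (-0.16) passed as lower without DMSO replicate 3 (-0.27, adjusted p = 0.00708) and without a filter on low counts (-0.18, adjusted p = 0.019), and was -0.02 without DMSO replicate 1. It shares 57.5% of its exon bases with AC093525.2 on the same strand, so its reads are not certain.

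In the V1 sector, 1 of 8 subunits rose and 2 fell. ATP6V1A, the catalytic subunit, was at 113, 115 and 113 CPM in ERKi libraries, against 53.4, 72.2 and 73.1 CPM in DMSO libraries. It rose by 0.78 on the log2 scale (adjusted p = 4.84e-07), and by 0.64 without DMSO replicate 1, its lowest library. ATP6V1B2, the B subunit that pairs with it in the catalytic hexamer, was at 435, 450 and 433 CPM in ERKi libraries, against 556, 612 and 598 CPM in DMSO libraries. The partner subunits thus moved in opposite directions, with a log2 change in ATP6V1B2 of -0.42 (SE 0.041, adjusted p = 1.05e-07). ATP6V1E1, a subunit of the peripheral stalk, was at 72.6, 74.0 and 72.2 CPM in ERKi libraries, against 86.5, 79.9 and 75.8 CPM in DMSO libraries. Its fall of 0.15 (adjusted p = 0.027) did not pass without DMSO replicate 1 (adjusted p = 0.0623), ERKi replicate 1 (0.0528) or ERKi replicate 3 (0.0724). ATP6V1C1, ATP6V1D, ATP6V1F, ATP6V1G1 and ATP6V1H had log2 fold changes between -0.13 and 0.08 and were not called. ATP6V1C1 passed as lower without ERKi replicate 1 (adjusted p = 0.0433) or without a filter (0.0267), and ATP6V1E1 did not pass at 1 CPM in 3 libraries (0.0653) or with the libraries compared alone (0.0524). Without DMSO replicate 1, ATP6V1C1 (-0.21) and ATP6V1H (-0.14) passed as lower, and ATP6V1G1 (0.15), ATP6V0E1 (0.16) and CTSH (0.22) as higher.

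All 3 TFEB family genes rose. TFEB, at chr6:41683978-41736259 (minus strand), was at 23.6, 24.7 and 22.8 CPM in ERKi libraries, against 13.4, 9.70 and 8.16 CPM in DMSO libraries. The ERKi libraries were clear of DMSO replicate 1, the highest of its group, and the rise was 2.28-fold (adjusted p = 2.32e-07). TFE3, at chrX:49028726-49043486 (minus strand), was at 61.7, 64.1 and 62.0 CPM in ERKi libraries, against 49.1, 45.0 and 40.9 CPM in DMSO libraries. It rose by 0.48 on the log2 scale (adjusted p = 1.6e-06) without overlap. MITF, at chr3:69739435-69968337 (plus strand) and best known from melanocytes and osteoclasts, was at 8.57, 8.04 and 7.59 CPM in ERKi libraries, against 4.01, 5.60 and 4.69 CPM in DMSO libraries. Its rise was 0.76 on the log2 scale (adjusted p = 0.000235), also without overlap.

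**Figure D3:**
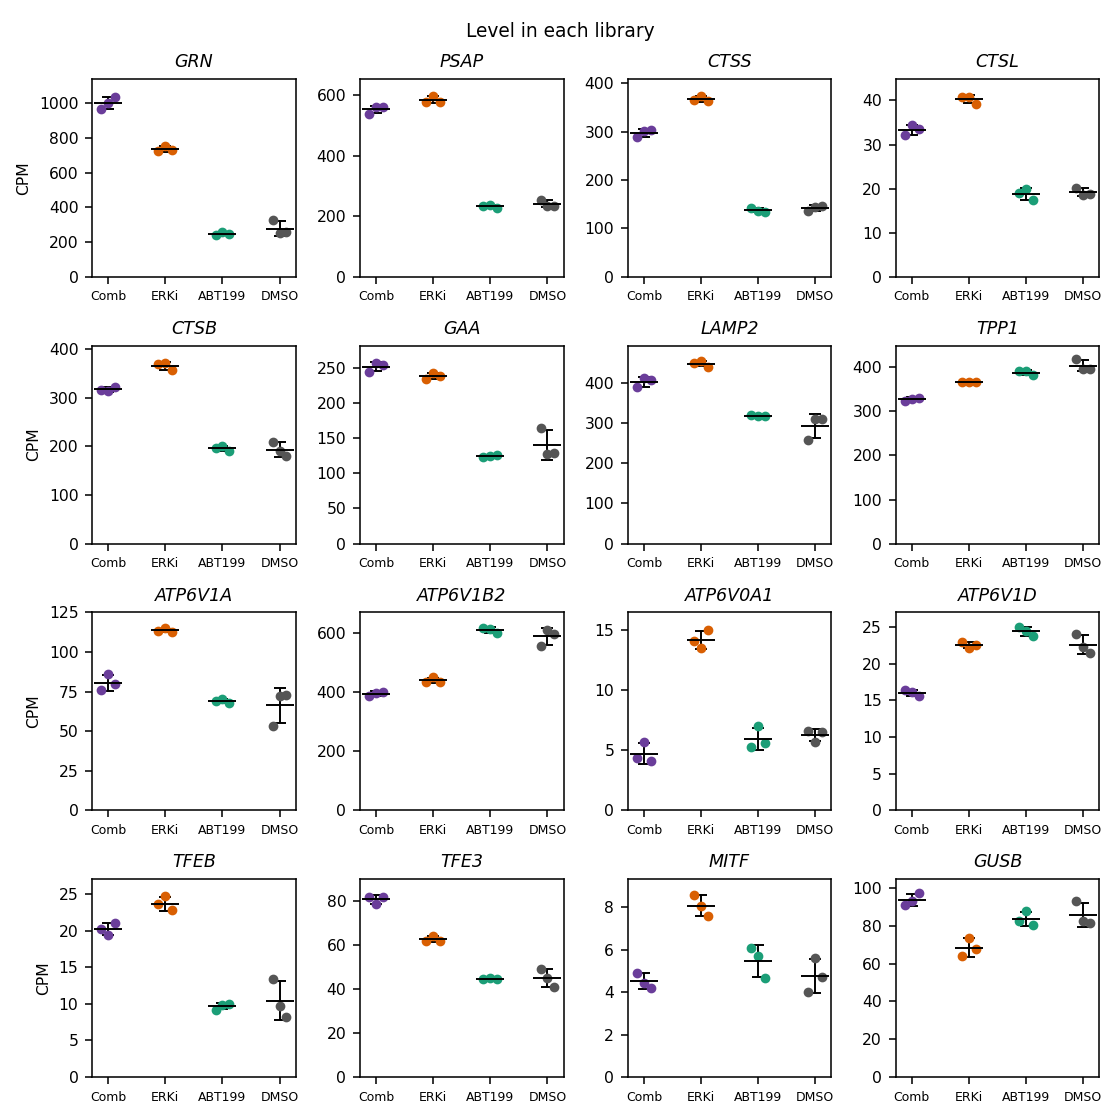
CPM of 16 members in each of the 12 libraries, with a point per library, a line at the group mean and error bars of 1 SD, for Comb, ERKi, ABT199 and DMSO from left to right. GRN and TFE3 are highest in Comb, ATP6V0A1 and MITF are highest in ERKi libraries, at 13.44–14.95 and 7.59–8.57 CPM, and ATP6V1D is lowest in Comb, at 15.6–16.4 CPM.

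Levels per kilobase of exon give a rough scale for the abundance of these genes. The length is the union of all annotated exons, 789 bases for ATP6V1F and 19341 bases for SCARB2. It may exceed the length of the RNA made, so ranks between genes are approximate. In DMSO cells CTSZ led with 95.82 ± 14.95 CPM per kb (SD, n = 3), followed by GRN at 75.5 ± 11.6, ATP6V1B2 at 75.3 ± 3.7 and PSAP at 74.3 ± 3.4. The libraries of GRN overlapped those of CTSZ, ATP6V1B2 and PSAP, so that this order is not firm. In ERKi cells GRN led with 200 ± 4.0 CPM per kb (SD, n = 3), ahead of PSAP at 180 ± 3.5, CTSZ at 149 ± 5.8 and CTSS at 86.8 ± 1.4, with no overlap between neighbours. ATP6V1B2 ranked 10 in ERKi cells at 56.2 ± 1.2 CPM per kb, against rank 3 in DMSO cells. TFE3, at 14.6 ± 0.3 CPM per kb in ERKi and 10.5 ± 1.0 in DMSO cells, stood above TFEB, at 4.20 ± 0.17 in ERKi and 1.84 ± 0.47 in DMSO cells. MITF, at 1.12 ± 0.07 in ERKi and 0.66 ± 0.11 CPM per kb in DMSO cells, was close to the bottom in both groups, where NEU1, ATP6V0A1 and MITF were the last 3. Whether the few counts of NEU1 reflect its RNA level or the way its reads were counted was not tested.

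Lysosomal genes outside the 41 were counted from lists of the same pathway. Of 32 other hydrolases tested, 22 rose with ERKi (68.8%) and 5 fell (15.6%), where 34.5% and 35.2% of all genes did, with a median log2 fold change of 0.85. FUCA1, the fucosidase, rose by 3.82 (106 ± 1.2 CPM in ERKi cells, against 7.52 ± 0.20 CPM in DMSO cells, SD, n = 3 each), CTSK and CTSF, cathepsins K and F, by 1.86 and 1.85, and MANBA, the beta-mannosidase, by 1.61. Of 23 other membrane proteins and transporters, 18 rose (78.3%) and 3 fell (13%), including LAPTM4B (-1.60) as the largest fall and SLC17A5, the sialic acid exporter, at 1.31, CD68, a macrophage glycoprotein, at 1.01 and the chloride exchanger CLCN7 at 0.86. Of 17 other V-ATPase subunits and accessory proteins, 8 rose (47.1%) and 4 fell (23.5%), with a median of 0.06. DMXL1 and DMXL2, which help assemble the pump, rose by 1.02 and 0.84, TCIRG1, an alternative a subunit, rose by 0.50 and the assembly factor VMA21 fell by 0.64.

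In the list of mTORC1 and TFEB control, 10 of 31 tested genes rose (32.3%) and 15 fell (48.4%), against 34.5% and 35.2% of all genes, at a median log2 fold change of -0.11. YWHAE and YWHAH, which encode 14-3-3 proteins, a family that holds phosphorylated TFEB in the cytoplasm, fell by 1.63 and 1.04. MLST8, an mTORC1 subunit, fell by 1.57, and RRAGB, a Rag GTPase, rose by 1.05. Among 28 genes of delivery to the lysosome, 12 rose (42.9%) and 7 fell (25%), against the same 34.5% and 35.2%. SORL1, a sorting receptor, rose by 1.75, VPS41 and VPS39 of the fusion complex HOPS by 0.62 and 0.60, and RAB7A, the late endosome GTPase, fell by 0.67.

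With venetoclax alone, 0 of the 40 tested members passed the test. Their log2 fold changes in ABT199 against DMSO lay between -0.17 and 0.20 with a median of -0.03, and over all genes 0.0198% were called higher and 0.382% lower by edgeR. The members summed to 4354, 4406 and 4262 CPM in ABT199 libraries, within or near the 4272 to 4569 CPM of DMSO libraries. At an unadjusted p under 0.05 there were 2 members, GAA (-0.17) and GRN (-0.16), and DESeq2 and limma-voom also called 0 members. GRN was at 244, 257 and 245 CPM in ABT199 libraries, overlapping DMSO replicates 2 and 3, and without DMSO replicate 1 its log2 fold change was -0.03 and that of GAA -0.04. TFEB was at 9.23, 9.84 and 9.96 CPM in ABT199 libraries, inside the DMSO range. A call missed at this depth and replication does not show that levels were equal.

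ERK inhibition on top of venetoclax, read from Comb against ABT199, shares no library with ERKi against DMSO. Here 25 members rose and 6 fell, against 32.1% and 34.2% of all genes, and the median log2 fold change was 0.24 against 0.00. Of the 22 members that rose with ERKi against DMSO, 19 rose here (86.4% of the 22 and 76% of the 25). Over all genes tested, 68.4% of those that rose with ERKi rose here, and they make up 73.6% of the genes that rose here. The difference from the members was not tested. The 3 others were ATP6V0A1, MITF and SCARB2. Of the 7 that fell with ERKi, 3 fell here (TPP1, ATP6V1B2 and ATP6V1E1), and GUSB, lower with ERKi, was higher here by 0.16.

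GRN again led, at 963, 1002 and 1033 CPM in Comb libraries, against 244, 257 and 245 CPM in ABT199 libraries. That is a 4.02-fold rise with no overlap (adjusted p = 9.72e-13). PSAP, at 538, 559 and 559 CPM in Comb libraries, against 235, 237 and 228 CPM in ABT199 libraries, rose 2.37-fold. CTSS, at 288, 300 and 303 CPM in Comb libraries, against 142, 136 and 134 CPM in ABT199 libraries, rose 2.16-fold. Of the 8 proteases 7 rose, and TPP1 fell to 324, 329 and 331 CPM in Comb libraries, against 392, 391 and 382 CPM in ABT199 libraries. TFEB, at 20.2, 19.4 and 21.0 CPM in Comb libraries, rose 2.09-fold over the ABT199 libraries, and TFE3, at 82.0, 78.4 and 81.9 CPM in Comb against 44.6, 45.1 and 44.4 CPM in ABT199 libraries, rose 1.81-fold. MITF was not called, at 4.91, 4.44 and 4.19 CPM in Comb libraries, against 6.09, 5.68 and 4.64 CPM in ABT199 libraries.

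V1 subunits split under the same comparison. ATP6V1B2, at 386, 397 and 402 CPM in Comb libraries, against 619, 614 and 600 CPM in ABT199 libraries, fell by 0.63 on the log2 scale. ATP6V1D, a rotor subunit, at 16.4, 16.1 and 15.6 CPM in Comb libraries, against 25.0, 24.4 and 23.8 CPM in ABT199 libraries, fell by 0.61. Neither overlapped. ATP6V1H, a regulatory subunit, fell by 0.43, ATP6V1C1 by 0.17 and ATP6V1E1 by 0.13, whereas ATP6V1F rose by 0.36, ATP6V1A by 0.22 and ATP6V1G1 by 0.16. ATP6V1D shares 6.3% of its exon bases with the more abundant EIF2S1, and ATP6V1F 23.7% with KCP, each on the opposite strand. The small changes rested on few libraries. ATP6V1A did not pass without any single ABT199 library, ERKi replicate 1, Comb replicate 2 or Comb replicate 3 (adjusted p 0.0509 to 0.145). ATP6V1E1 did not pass without ABT199 or ERKi replicates 2 and 3 or Comb replicates 1 and 2, each left out in turn (0.0517 to 0.161), nor, with all libraries kept, under RLE scaling, DESeq2, no filter or a filter of 1 CPM in 3 libraries (0.0656 to 0.137). ATP6V1G1 did not pass without DMSO replicate 2, ABT199, ERKi or Comb replicates 1 and 3 in turn (0.0537 to 0.199), nor ATP6V1C1 without Comb replicate 2 (0.0662). Likewise ATP6V0C (0.23) and GUSB (0.16) did not pass without ABT199 replicate 1 or 3 or Comb replicate 2 or 3 (0.0623 to 0.13), nor ATP6V0D1 (0.19) without those or ABT199 replicate 2 (0.0527 to 0.122). ATP6V0A1 (-0.34, adjusted p = 0.0525) passed as lower without DMSO replicate 1, ABT199 replicate 1 or Comb replicate 2 (0.00951 to 0.0475), LIPA without DMSO replicate 1 or ABT199 replicate 3 (0.0334 and 0.0322), and MITF without ABT199 replicate 3 (0.0495).

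Comb against DMSO uses the same DMSO libraries as ERKi against DMSO, so each is given by its own values. Of the 40 members, 21 rose and 5 fell in Comb, against 30.4% and 33.4% of all genes, with a median log2 fold change of 0.26. Without DMSO replicate 1, 27 rose and 6 fell. The combined level of the 41 genes was 6001, 6152 and 6247 CPM in Comb libraries, against 4569, 4309 and 4272 CPM in DMSO libraries. GRN reached 3.60-fold, PSAP 2.29-fold and CTSS 2.09-fold, the 3 members that rose at least 2-fold, and no member fell by as much, where 10.1% and 6.85% of all genes did. Falls were found in TPP1 (-0.30), ATP6V1B2 (-0.58), ATP6V1D (-0.50), ATP6V1H (-0.37) and ATP6V0A1 (-0.41). ATP6V0A1 did not pass without DMSO replicate 1 or 3 or Comb replicate 1 or 3 (adjusted p 0.0537 to 0.098), nor CTSH (0.27) or ATP6V1A (0.28) without Comb replicate 2 (0.0667 and 0.0576). ATP6V1F (0.29) did not pass without DMSO or Comb replicates 2 and 3 in turn (0.0541 to 0.104), and was 0.45 without DMSO replicate 1, where ATP6V1A was 0.14.

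Adding venetoclax to the ERK inhibitor moved the members in both directions. In Comb against ERKi, 12 members rose and 16 fell, where 26.5% and 24.3% of all genes did, and the median log2 fold change was -0.07. ATP6V0A1 changed most, at 4.30, 5.69 and 4.09 CPM in Comb libraries, against 14.02, 13.44 and 14.95 CPM in ERKi libraries. All Comb values lay far below all ERKi values, a 0.332-fold level (SE 0.143 on the log2 scale, adjusted p = 1.83e-07). MITF, at 4.91, 4.44 and 4.19 CPM in Comb libraries, against 8.57, 8.04 and 7.59 CPM in ERKi libraries, was at 0.56-fold (adjusted p = 0.000217). TFEB was not called (log2 fold change -0.23, adjusted p = 0.119), although all Comb values lay below all ERKi values. The Comb values of MITF lay inside the DMSO range of 4.01 to 5.60 CPM, and 2 of the 3 Comb values of ATP6V0A1 lay below its DMSO range. ATP6V1D, at 16.4, 16.1 and 15.6 CPM in Comb libraries, against 22.98, 22.12 and 22.59 CPM in ERKi libraries, fell by 0.49 on the log2 scale (adjusted p = 1.52e-05). ATP6V1A fell by 0.50 and ATP6V1H by 0.29, so that 5 V-ATPase subunits fell, with ATP6V1B2 (-0.15) among them, and 4 rose.

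Among the hydrolases and membrane proteins, CTSS fell to 288, 300 and 303 CPM in Comb libraries, against 365, 374 and 363 CPM in ERKi libraries (log2 fold change -0.30, adjusted p = 2.37e-05). CTSB, CTSL, CTSD and TPP1 also fell, by 0.16 to 0.27, as did SCARB2 (-0.35), NPC1 (-0.26), LAMP2 (-0.15), LIPA (-0.21) and ASAH1 (-0.16). Rises of similar size were found elsewhere. GUSB was at 91.0, 93.0 and 97.2 CPM in Comb libraries, against 63.9, 73.6 and 67.8 CPM in ERKi libraries, and rose by 0.45 (adjusted p = 2.18e-05). GRN rose by 0.44 (adjusted p = 9.24e-05) over its already raised ERKi level, GLA by 0.43, TFE3 by 0.37, NAGLU by 0.30, CTSZ by 0.27, CTSA by 0.21 and LAMP1 by 0.17. ATP6V1F rose by 0.39, ATP6V0C by 0.25, ATP6V0D1 by 0.23 and ATP6V0B by 0.18. Several of the smaller calls were lost when a library was left out. LAMP2 did not pass without any single ERKi library or Comb replicate 1 or 3, nor CTSA without any single ERKi library or Comb replicate 1 or 2 (adjusted p 0.0507 to 0.0978). With all libraries kept, LAMP2 did not pass under RLE scaling (0.0529), DESeq2 (0.0551) or no filter (0.103), nor did TPP1 (0.0826), ASAH1 (0.111) and ATP6V1B2 (0.0989) without a filter. ATP6V0C and ATP6V0D1 did not pass without ERKi replicate 1 or 3 or Comb replicate 2 or 3 (0.0719 to 0.104), NAGLU without ERKi replicate 3 (0.0627) or CTSD without Comb replicate 1 (0.0532). Other calls were gained. TFEB passed as lower without DMSO replicate 1 (0.0143) or with the libraries compared alone (0.00552). So did PSAP (0.0156 and 0.0176), also at 1 CPM in 3 libraries (0.0422). HEXA passed as lower with the libraries compared alone (0.0434). Without DMSO replicate 1, NPC2 (0.035) and GAA (0.0249) passed as higher. NPC2 also passed without ERKi replicate 2 (0.0223) or a filter (0.0128).

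Whether venetoclax acted differently in the presence of the ERK inhibitor was tested directly, as its log2 effect with ERKi minus its log2 effect without it. This interaction was positive for 9 members and negative for 13, against 21.3% and 18% of all genes, with a median of -0.04. Without DMSO replicate 1 the counts were 10 and 18. The lowest adjusted p belonged to ATP6V0A1 (-1.52, SE 0.203, adjusted p = 3.19e-05), for which venetoclax alone gave -0.07 and venetoclax with ERKi gave -1.59. ATP6V1D followed at -0.60 (adjusted p = 0.000119), then GRN at 0.60 (adjusted p = 0.000286) and GUSB at 0.49 (adjusted p = 0.000535). Within the TFEB family MITF had -1.03 (adjusted p = 0.00124), TFE3 had 0.38 (adjusted p = 0.00188) and TFEB had -0.12, not called, but -0.34 without DMSO replicate 1 (adjusted p = 0.0327). Some of the 22 calls rested on single libraries. ASAH1 and LIPA did not pass in most fits that left out a library (adjusted p up to 0.12 and 0.127), LAMP1 without ABT199 replicate 3, ERKi replicate 1 or Comb replicate 3, ATP6V0C without ABT199 replicate 3, ERKi replicate 1 or 3 or Comb replicate 2 or 3, CTSZ without ERKi replicate 1 or Comb replicate 3, and CTSB without DMSO replicate 3 or ABT199 replicate 2 (0.0501 to 0.0857). Without DMSO replicate 1, CLN3, CTSD, CTSL, TPP1 and TFEB passed as negative and GAA as positive, and the interaction was 0.20 for CTSZ, 0.24 for ATP6V0C and 0.29 for ATP6V1F. Without a filter, NPC1, CTSB, ASAH1, LIPA and ATP6V1B2 did not pass (0.0786 to 0.308). PSAP had an interaction of -0.04, with a 95% interval from -0.16 to 0.09.

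**Figure D4:**
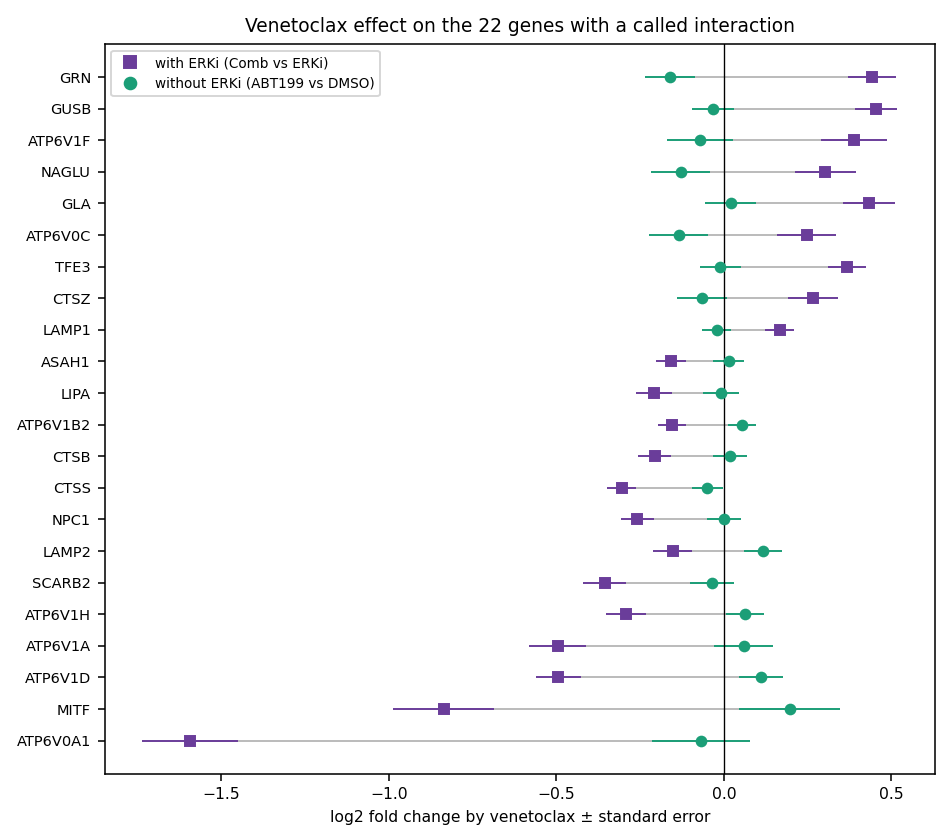
Log2 fold change by venetoclax, with its standard error, in the presence of ERKi (Comb against ERKi, purple squares) and in its absence (ABT199 against DMSO, green circles) for the 22 members with a called interaction, from the most positive to the most negative. The green circles lie between -0.16 and 0.20, and the purple squares run from 0.45 for GUSB to -1.59 for ATP6V0A1.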

How the data were processed

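Polyadenylated RNA of OCI-AML3 cells was sequenced as paired ends in 12 libraries, 3 per group. The values are raw read counts per gene symbol that the authors deposited for 54628 symbols, and 0 rows named no gene. The tools HISAT2, HTSeq and DESeq2 and the build hg38 are named by the submitters' processing notes, without a role. Tool versions, gene annotation and strand setting: not given in the sources used here. Reads of overlapping genes may therefore be shared. The 41 members and all lists were chosen with earlier results of these data known.

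The analysis used R 4.3.3 and edgeR 4.0.16. Low genes were removed with filterByExpr at a minimum count of 10 and a total of at least 15, and libraries were scaled by TMM, which takes most genes as unchanged. All 12 libraries entered a single group-means model with 8 residual degrees of freedom. Contrasts were tested with the quasi-likelihood method, and p-values were adjusted after Benjamini-Hochberg over 15173 genes. Genes were called at an adjusted p under 0.05. Standard errors come from dividing the absolute log2 change by the root of its F statistic. CPM is the count divided by the scaled library size, times 1e+06, and levels per kilobase use the union of GENCODE 29 exons on GRCh38, which also gave gene positions. Promoters are RefSeq windows of GRCh38.p14. Library totals from 19199296 to 21275065 and a common biological coefficient of variation of 0.0727 set the precision.

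Values per library are given for the TFEB family, for members called in ERKi against DMSO with the 2 largest rises and falls of their role, and for the 4 with the lowest adjusted p in the interaction and in Comb against ERKi. A mean of at least 5 CPM was required. From each further list, up to 4 called genes with the largest change are named. TFEB values in ABT199, and those of NEU1, were added. The fit was tested on simulated counts with 200 changed genes, where ERKi against DMSO called 5232 genes higher and 5346 lower. Alternatives were RLE scaling, DESeq2 1.42.0, limma-voom (limma 3.58.1), no filter, at least 1 CPM in 3 libraries, a replicate block, the libraries compared alone, and each library left out. The result of 1 marker list is not reported here.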

Additional observations from a re-analysis of the deposited data

Results flagged for a closer look

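The effect of venetoclax differed between cells with and without the ERK inhibitor for 22 members, by the edgeR test of the interaction described above. Of these, 9 were positive and 13 negative, against 21.3% and 18% of all genes tested. Calls for ASAH1, LIPA, LAMP1, ATP6V0C, CTSZ and CTSB were lost when some single libraries were left out, as given above. Values are the log2 effect of venetoclax with ERKi minus the log2 effect without it. Among membrane proteins this was 0.19 for LAMP1, -0.27 for LAMP2, -0.32 for SCARB2 and -0.26 for NPC1. Among proteases it was -0.22 for CTSB, -0.26 for CTSS and 0.33 for CTSZ. The 3 glycosidases GLA, GUSB and NAGLU had 0.41, 0.49 and 0.43, all positive. ASAH1 and LIPA, which act on lipids, had -0.17 and -0.20, and GRN had 0.60. In the V0 sector ATP6V0A1 had -1.52 and ATP6V0C had 0.38. In the V1 sector ATP6V1A had -0.56, ATP6V1B2 -0.21, ATP6V1D -0.60, ATP6V1H -0.36 and ATP6V1F 0.46. TFE3 had 0.38 and MITF -1.03.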

How the results depend on the processing

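No called value changed sign under any alternative, and no scaling moved the median of all genes by over 0.1 on the log2 scale. The scalings compared all take most genes as unchanged, so a shift shared by most genes would not show. In ERKi against DMSO, 34.5% of all genes were called higher and 35.2% lower. Against DMSO, ERKi called 22 members higher and 7 lower, and 22 to 25 and 6 to 8 when each library was left out in turn. The corresponding ranges were 18 to 27 and 4 to 6 for Comb against DMSO (21 and 5 with all libraries), 20 to 25 and 5 to 8 for Comb against ABT199 (25 and 6), 8 to 14 and 14 to 18 for Comb against ERKi (12 and 16), and 6 to 12 and 10 to 18 for the interaction (9 and 13). ABT199 against DMSO called 0 members under all alternatives run. Over all genes that comparison called 3 higher and 58 lower, against 74 and 168 without a filter, 12 and 72 by DESeq2, 17 and 81 without DMSO replicate 1 (1 to 17 and 30 to 81 over single libraries left out) and 1 and 32 with the libraries compared alone. Without a filter on low counts the interaction had 8 negative members, against 13 with it, and 13 positive; the cause was not tested. Replicate numbers did not pair the samples, with 18 correlations of same-numbered deviations between -0.07 and 0.09, and with the replicate block 22 members rose and 7 fell in ERKi against DMSO, 24 rose and 5 fell in Comb against ABT199, and 9 and 12 had a positive and a negative interaction. The calls lost under the block were ATP6V1E1 (adjusted p = 0.061) and ATP6V1G1 (0.0618) in Comb against ABT199 and ASAH1 (0.0524) in the interaction. Over the alternatives, member calls were lost in 5 of 760 values and gained in 12 for ERKi against DMSO, and lost in 38 of 720 and gained in 21 for the interaction. Of 760 values each, calls were lost in 39 and gained in 6 for Comb against ABT199. They were lost in 26 and gained in 10 for Comb against ERKi, and lost in 11 and gained in 14 for Comb against DMSO. Low counts limit NEU1, MITF, ATP6V0A1 and MCOLN1, the members with the fewest counts.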

Other observations

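The genes below were chosen for mention after their values were seen. TFEC, the remaining factor of the TFEB family, averaged 3.69 ± 0.65 CPM in Comb, 1.32 ± 0.40 in ERKi, 0.16 ± 0.17 in ABT199 and 0.32 ± 0.22 CPM in DMSO cells (SD, n = 3 each). Its log2 fold change was 2.04 in ERKi against DMSO (adjusted p = 0.00135), 4.42 in Comb against ABT199 (adjusted p = 8.04e-07) and 1.47 in Comb against ERKi (adjusted p = 0.00303), so that it was highest in Comb, where MITF was not. GPNMB, a glycoprotein whose gene MITF and TFEB activate in other cells, averaged 0.32 ± 0.11 CPM in Comb, 1.76 ± 0.47 in ERKi, 0.73 ± 0.30 in ABT199 and 0.51 ± 0.31 CPM in DMSO cells, and fell by 2.46 on the log2 scale in Comb against ERKi (adjusted p = 0.000379). TCIRG1, an alternative to ATP6V0A1 in the pump, was at 278 ± 8.2 CPM in Comb, 184 ± 3.2 in ERKi, 117 ± 0.9 in ABT199 and 130 ± 17.1 CPM in DMSO cells. It rose by 0.60 in Comb against ERKi (adjusted p = 1.68e-06), where ATP6V0A1 fell by 1.59.

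All 6 genes of the 14-3-3 family in the list fell in ERKi against DMSO and in Comb against ABT199. Of all genes tested, 35.2% and 34.2% were called lower in these comparisons. The falls differed in size, with YWHAZ at 1012 ± 15.2 CPM in ERKi and 1091 ± 44.8 CPM in DMSO cells. YWHAE was already lower with venetoclax alone, at 21.4 ± 1.0 CPM in ABT199 and 37.3 ± 8.6 CPM in DMSO cells. YWHAQ averaged 279 ± 7.7 CPM in Comb, 261 ± 4.7 in ERKi, 524 ± 20.7 in ABT199 and 499 ± 16.5 CPM in DMSO cells (SD, n = 3 each). XPO1, which exports TFEB and many other proteins from the nucleus, was at 415 ± 10.5 CPM in Comb, 413 ± 1.3 in ERKi, 860 ± 10.9 in ABT199 and 813 ± 80.7 CPM in DMSO cells.

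The sialidase NEU1 held 93, 5 and 7 counts in Comb, 11, 3 and 2 in ERKi, 3, 4 and 1 in ABT199 and 6, 1 and 7 counts in DMSO libraries. Comb replicate 1 alone was high. NEU1 was tested only under some alternatives. With no filter on low counts edgeR gave a log2 fold change of 2.98 in Comb against DMSO (adjusted p = 5.27e-10), and with single other libraries left out the adjusted p was 0.00237 to 0.041. Without Comb replicate 1 it did not pass the filter on low counts.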
